A study of Mus musculus with 354 samples.

Results

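Kupffer cell and macrophage marker genes were followed in the livers of 45 inbred mouse strains given the drug tolvaptan or its vehicle. The set holds 10 genes: Clec4f, Vsig4, Cd5l, Timd4, Marco, Adgre1, C1qa, C1qb, C1qc and Cd68. Each is represented by 1 Affymetrix probe set annotated to that symbol alone, out of 16670 genes with such a probe set, and all 10 were among the 14125 genes tested.

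The animals were male mice of 45 strains of the Collaborative Cross, a panel of recombinant inbred lines, 8 to 10 weeks old and acclimated for 7 days before dosing. The vehicle group, labelled Control, has 179 livers and the tolvaptan group has 175, all taken 24 h after dosing and after about 18 h of fasting, and the dose is not given in the sources used here. Tolvaptan blocks the vasopressin V2 receptor. Of the 90 combinations of strain and treatment, 85 have 4 animals, 4 have 3 and 1 has 2, and each array is 1 animal. RNA came from the median lobe as a whole, so the values are of bulk liver, in which fewer macrophages and less RNA per macrophage cannot be told apart.

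Kupffer cells are the resident macrophages of the liver sinusoids, where they clear particles, bacteria, old red cells and complement-coated material from portal blood. In mice they carry the lectin Clec4f, the complement receptor Vsig4 and the phosphatidylserine receptor Timd4, and they secrete Cd5l, also called AIM. Marco is a scavenger receptor, Adgre1 encodes F4/80, and Cd68 is a glycoprotein of late endosomes and lysosomes in macrophages of any origin. C1qa, C1qb and C1qc encode the chains of C1q, the recognition subunit of classical complement, which macrophages make for the blood.

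The C1q genes lie next to each other on chromosome 4. Promoter windows, from 250 bases before to 50 bases after a transcript start, were taken from RefSeq on GRCm38.p6 for 8 of the 10 genes, all but C1qa and Adgre1. The windows of C1qb and C1qc are shown because these genes moved together across animals and strains, and that of Cd68 because it departed from the others in the drug comparison. Capitals mark GAGGAA or its reverse complement TTCCTC, the core that the macrophage factor PU.1 is known to bind, searched on both strands. The C1qb window is chr4:136886151-136886450, the C1qc window chr4:136892865-136893164 and the Cd68 window chr11:69666121-69666420, all on the minus strand, and each is written 5′ to 3′ along its gene.
C1qb: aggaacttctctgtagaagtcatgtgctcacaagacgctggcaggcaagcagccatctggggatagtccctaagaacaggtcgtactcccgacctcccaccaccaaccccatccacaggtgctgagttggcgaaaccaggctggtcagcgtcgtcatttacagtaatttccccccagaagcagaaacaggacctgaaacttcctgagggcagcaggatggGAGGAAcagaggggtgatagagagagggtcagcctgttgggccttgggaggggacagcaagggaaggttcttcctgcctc
C1qc: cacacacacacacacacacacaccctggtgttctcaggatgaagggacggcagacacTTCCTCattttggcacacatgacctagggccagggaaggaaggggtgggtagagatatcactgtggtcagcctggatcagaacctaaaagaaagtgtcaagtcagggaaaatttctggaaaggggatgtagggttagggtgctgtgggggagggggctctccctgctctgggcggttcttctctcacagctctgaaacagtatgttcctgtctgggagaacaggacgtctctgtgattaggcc
Cd68: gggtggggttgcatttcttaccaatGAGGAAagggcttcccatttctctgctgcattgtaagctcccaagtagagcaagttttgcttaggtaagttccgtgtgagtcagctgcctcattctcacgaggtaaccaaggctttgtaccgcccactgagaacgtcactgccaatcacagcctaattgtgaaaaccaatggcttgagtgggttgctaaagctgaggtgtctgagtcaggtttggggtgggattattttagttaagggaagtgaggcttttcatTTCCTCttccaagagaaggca
The motif was present in 6 of the 8 windows (Vsig4, Cd5l, Marco, C1qb, C1qc and Cd68) and in 28.3% of all 32851 windows of the table. A match describes these letters and was not tested as a binding site.

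Before the comparisons, each array was set against its strain. Over the 500 probe sets that differed most between strains, the correlation of an array with its strain mates was 0.33 or lower for 34 of the 354 arrays and 0.65 or higher for the remaining 320. Of the 34, 27 are labelled Control and 7 Tolvaptan, 22 belong to the second of 6 scan dates, and 31 matched another strain at 0.5 or more. They are spread over 19 strains and are called arrays off their strain below; 26 strains hold none. Values are log2 intensities, on which the median probe set of an array lay at 2.89, between 2.81 and 3.02 over the arrays. The mean of 8 hepatocyte genes, the defining cells of liver, lay between 11.84 and 13.10 in all arrays. Clec4f, Vsig4, Cd5l, Adgre1, the C1q genes and Cd68 lay above the array median in every array. Timd4 did so in 87 of 179 vehicle and 92 of 175 tolvaptan arrays and Marco in 95 and 99, so these genes were measured close to background in many animals.

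Vehicle livers differed between strains for every gene of the set. Limma's F test over the 45 vehicle means called 10 of the 10 genes, with adjusted p from 1.12e-12 for Marco to 8.68e-07 for Cd68, but the same test called 74.9% of all genes tested. The strain means had a median SD of 0.45 over the 10 genes against 0.24 over all genes, and animals of 1 strain and treatment also varied more, with a median SD of 0.45 against 0.30. Without the arrays off their strain all 10 stayed called, the highest adjusted p being 8.32e-08 for Vsig4.

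Among the receptors that define Kupffer cells, Clec4f ran in vehicle animals from 5.74 over a median of 8.15 to 9.38. Its strain means, adjusted for scan, went from 7.32 in AU8024 to 9.04 in AU8052. As measured, the 4 vehicle animals of AU8024 averaged 7.26 ± 0.90 (SD) and the 3 of AU8052 averaged 9.09 ± 0.25. Vsig4 ran from 5.03 over 6.86 to 8.62 in vehicle animals, with strain means from 5.94 in OR13067 to 7.98 in AU8052. Both genes were therefore highest in AU8052, whose vehicle animals lay close together for Vsig4 (8.04 ± 0.04, SD, n = 3). Their lowest strains, AU8024 and OR13067, each hold 2 vehicle arrays off their strain. Without such arrays AU18042 was lowest for both genes, at 7.27 for Clec4f and 6.07 for Vsig4. Timd4, close to background, ran from 1.92 over 2.85 to 4.78, and its strain means from 2.40 in AU8046 to 3.94 in AU8010 (4.02 ± 0.76 as measured, SD, n = 4).

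Cd5l, the secreted member, ran from 7.25 over 9.79 to 11.12 in vehicle animals. Its strain means went from 8.76 in AU8024 to 10.60 in OR3032, where the 4 animals averaged 10.81 ± 0.20 (SD). The low mean of AU8024 holds 2 arrays off their strain, and its 4 vehicle animals spread by 1.60 (SD). Without such arrays AU18042 was lowest at 8.80 and OR867 highest at 10.66.

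Marco had the widest strain range of the set, 3.95, from 2.08 in AU8046 to 6.02 in AU8043. The vehicle animals ran from 1.54 over 2.97 to 10.12, and 36 of the 45 strain means lay within 1 between-animal SD (0.82) of the median strain. Above them came AU8043, then OR5612 at 5.59 and OR867 at 5.45. OR3032 followed at 4.74, below the widest gap between neighbouring strains, 0.70. The place of AU8043 rests on 1 animal, number 393, with 10.12 against 4.36 to 4.80 in the other 3. Without that animal AU8043 averaged 4.67 and ranked 4, and OR5612 was highest at 5.57. OR5612 and OR867 were high under tolvaptan as well, with 6.10 ± 0.72 and 5.73 ± 0.27 (SD, n = 4 each).

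Adgre1, the F4/80 gene, ran from 3.35 over 5.12 to 8.28 in vehicle animals, with strain means from 4.18 in AU8024 to 6.24 in AU8043. Animal 393 again set the top, and without it the highest strain was AU8034 at 5.92. Cd68 ran from 2.98 over 5.20 to 7.22. Its strain means went from 4.20 in OR3415, with 4 animals at 4.32 ± 0.16 (SD), to 6.44 in IL16680, with 4 at 6.46 ± 0.57, and neither strain holds an array off its strain.

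In vehicle animals C1qa ran from 5.10 over 8.31 to 9.63, C1qb from 4.90 over 7.87 to 9.15 and C1qc from 4.81 over 7.29 to 8.81. C1qa was lowest in AU8024 (7.23) and highest in AU8052 (9.05). C1qb went from 6.74 in AU18042 to 8.59 in IL16188, and C1qc from 6.23 in AU18042 to 8.13 in OR3032. AU8052 was second highest for C1qb and C1qc, at 8.51 and 8.04. Without the arrays off their strain AU18042 was lowest for all 3 chains, at 6.99, 6.21 and 6.10. AU8033, then with 2 vehicle animals, was highest for C1qb and C1qc, at 8.64 and 8.27.

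**Figure D1:**
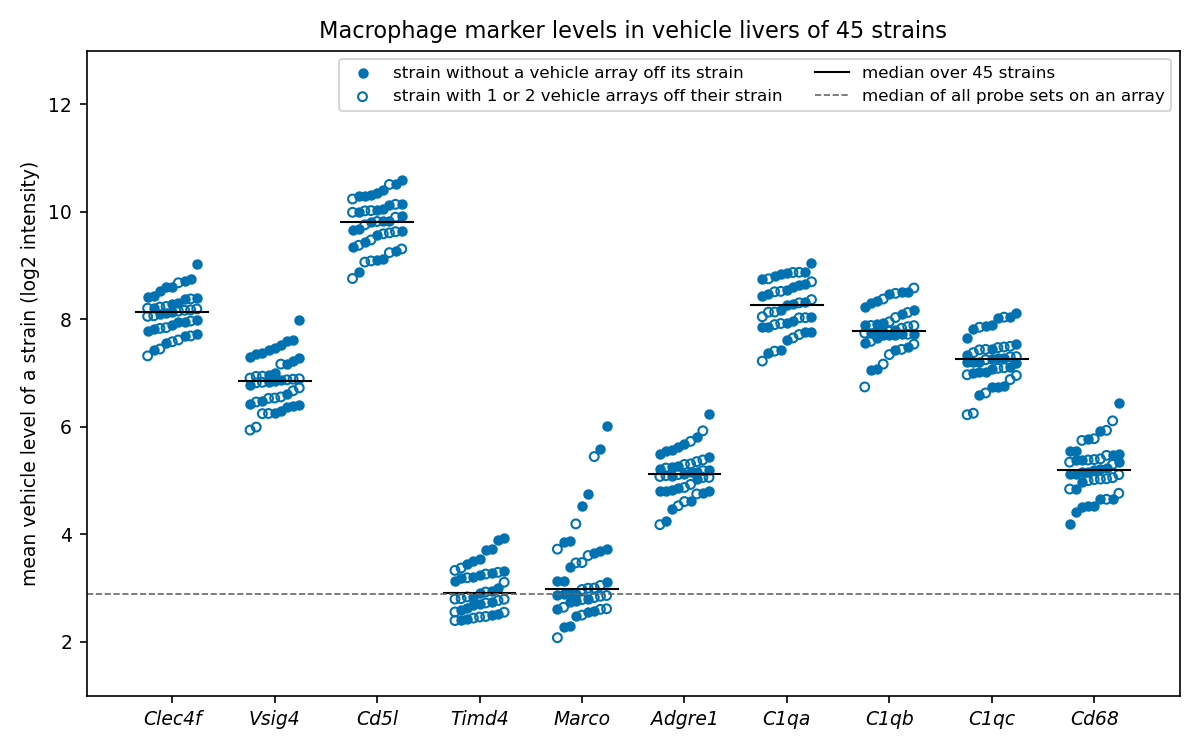
Mean vehicle level of each of 45 strains (log2 intensity, adjusted for scan; 1 point per strain, open where 1 or 2 of its vehicle arrays are off their strain) for the 10 genes; the short bar is the median strain and the dashed line the median probe set of an array. Timd4 and Marco sit around the dashed line in most strains, and for Marco a few strains stand above the rest, up to 6.02.

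Several strains took the ends of these orders for most genes. AU8052 was among the 5 highest strains for 7 of the 10 genes, and OR3032 and OR13140 for 6 each. Without the arrays off their strain these counts were 7, 5 and 3. OR3415, AU8024 and AU18042 were each among the 5 lowest for 7 genes, and without those arrays for 7, 4 and 9. Without them AU8046 was among the 5 lowest for 9 genes, against 4 with all arrays, and AU8033 among the 5 highest for 6, against 0. With all arrays, in none of the 10 genes did the gap between 2 neighbouring strains exceed the SD between animals. That SD is of single animals, while the means are mostly of 4 and each gene has 44 gaps. The comparison therefore cannot show whether the order was gradual. The largest gaps were 0.70 for Marco, between OR3032 and OR867, and 0.36 for Vsig4, between AU8036 and AU8052. From 27 (C1qa) to 36 (Marco) of the 45 strains lay within 1 such SD of the median strain.

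The strain order of vehicle livers was set beside that of the tolvaptan livers, which are other animals of the same strains. Pearson's r between the vehicle and tolvaptan means of the 45 strains was highest for Marco, 0.83 (Spearman's rho 0.85), followed by C1qa (0.71 and 0.70), Vsig4 (0.69 and 0.62) and Clec4f (0.68 and 0.65). It was lowest for Cd5l, at 0.49 (rho 0.50), and for Timd4, at 0.57 (rho 0.49). Leaving out the 2 strains farthest from the median vehicle mean gave 0.45 (Timd4) to 0.83 (Marco). Over the 26 strains that hold no array off its strain, r was 0.63 (Timd4) to 0.86 (C1qa). In the first scan alone, with 1 animal of each treatment per strain, it was 0.19 (Cd5l) to 0.53 (Marco). Points of a strain share genotype and, in part, scan, and these values are given as a description.

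Averaged over the 45 strains, tolvaptan livers differed little from vehicle livers in these genes. Limma called 0 of the 10 genes at an adjusted p under 0.05, where it called 0.496% of all 14125 genes. At an unadjusted p under 0.05 stood 1 of the 10, Cd68, against 9.56% of all genes. The median difference of the 10 was 0.011 and 7 of 10 were above 0, against a median of 0.00027 and 50.3% of all genes, and without the arrays off their strain 4 of 10 were above 0.

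Of the receptors, Clec4f in tolvaptan animals ran from 5.94 over 8.07 to 9.52, and the averaged difference was -0.031 ± 0.043 (SE; 95% confidence interval -0.12 to 0.055). Vsig4 ran from 4.95 over 6.86 to 8.80 and differed by 0.0069 ± 0.047 (-0.086 to 0.10). Timd4 ran from 1.83 over 2.94 to 5.38 and differed by 0.055 ± 0.049 (-0.041 to 0.15). The ranges of both treatments overlapped almost wholly, and the intervals leave room for averaged changes of at most 0.15 on the log2 scale in these 3 receptors. Marco, from 1.67 over 3.11 to 8.38 in tolvaptan animals, was measured less precisely, with 0.082 ± 0.087 (-0.089 to 0.25).

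The secreted Cd5l ran from 7.16 over 9.73 to 11.49 under tolvaptan and differed by -0.035 ± 0.055 (SE; -0.14 to 0.074). For Adgre1 the tolvaptan values ran from 3.26 over 5.08 to 7.07, with a difference of -0.032 ± 0.046 (-0.12 to 0.058). The C1q chains differed by 0.0011 ± 0.048 (C1qa), 0.015 ± 0.049 (C1qb) and 0.032 ± 0.046 (C1qc), with tolvaptan medians of 8.27, 7.86 and 7.31. For all 3 the sign was negative without the arrays off their strain, at -0.025, -0.029 and -0.019.

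Cd68 had the largest averaged difference of the 10 genes. It ran from 3.92 over 5.31 to 8.39 in tolvaptan animals and differed by 0.14 ± 0.057 (SE; 0.025 to 0.25), with an unadjusted p of 0.0168 and an adjusted p of 0.364 by limma, and it was higher under tolvaptan in 30 of 45 strains. The difference was 0.21 in the first scan alone and 0.12 in the later scans together, and 0.074 ± 0.053 without the arrays off their strain. Leaving out OR5119, the strain with the largest difference, gave 0.094.

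**Figure D2:**
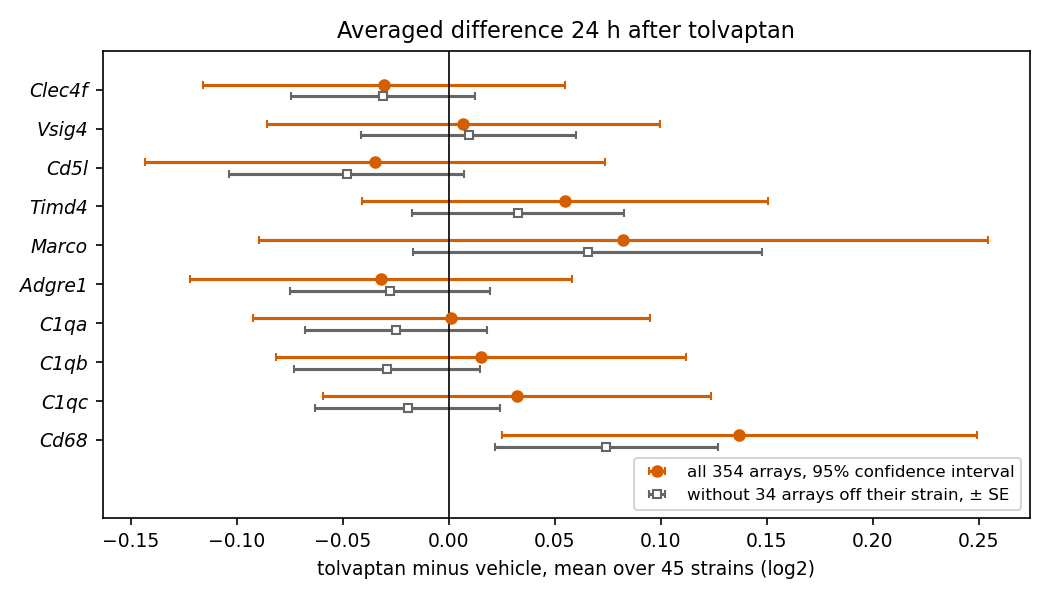
Tolvaptan minus vehicle averaged over 45 strains (log2) for each gene, from all 354 arrays (filled, with 95% confidence interval) and without the 34 arrays off their strain (open, ± SE). Only the interval of Cd68 lies above 0, and its point moves from 0.14 to 0.074 without those arrays.

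Genes of other liver cells, and further macrophage genes, were read beside them. Of 15 further Kupffer cell genes, such as the iron exporter Slc40a1 (-0.094 ± 0.047, SE) and the lipid sensor Nr1h3 (-0.049 ± 0.027), limma called 0, and 2 were above 0, with a median of -0.037. It also called 0 of 17 general myeloid genes (Sirpa 0.067 and Mertk 0.045), 0 of 10 monocyte and recruited macrophage genes (Trem2 0.057 and Cd9 0.11), 0 of 5 classical complement partners of C1q (Serping1 -0.023 and C4bp -0.045) and 0 of 10 lysosomal genes (Ctsz 0.042 and Lamp1 -0.019). The medians of these 4 lists were 0.00097, 0.029, -0.023 and 0.022. Of 10 sinusoidal endothelial genes, which line the same vessels as Kupffer cells, 1 was called: the scavenger receptor Stab2 fell by 0.19 (SE 0.036, adjusted p = 0.00104 by limma). None of the genes tested for neutrophils (8), T and NK cells (7), B cells (3), dendritic cells (3), stellate cells and fibroblasts (7) or hepatocytes (8) was called. The 2 of each with the lowest adjusted p were S100a8 (0.16) and Ngp (-0.054), Klrd1 (0.063) and Ccl5 (0.094), Ms4a1 (-0.050) and Cd79b (-0.043), Flt3 (0.040) and Cd209a (0.020), Reln (-0.12) and Dcn (-0.061), and Apoa1 (-0.016) and Ass1 (-0.062).

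Whether the drug difference depended on strain was asked with limma's F test over the strain differences. It called 0 of the 10 genes and 0.0212% of all genes. At an unadjusted p under 0.05 stood 3 of the 10 genes, Cd5l (p = 0.00879), Timd4 (p = 0.00695) and Adgre1 (p = 0.0241), against 6.78% of all genes, and their adjusted p lay between 0.510 and 0.661. The SD of the strain differences was 0.38 in the median over the 10 genes and 0.22 over all genes. In single strains limma called 5 of 450 differences, 4 in AU8024 and 1 in OR5119, against 0.281% of all genes and strains. In a fit of each strain on its own arrays 0 of the 450 were called, and with p adjusted over all genes and strains together 2 were.

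**Figure D3:**
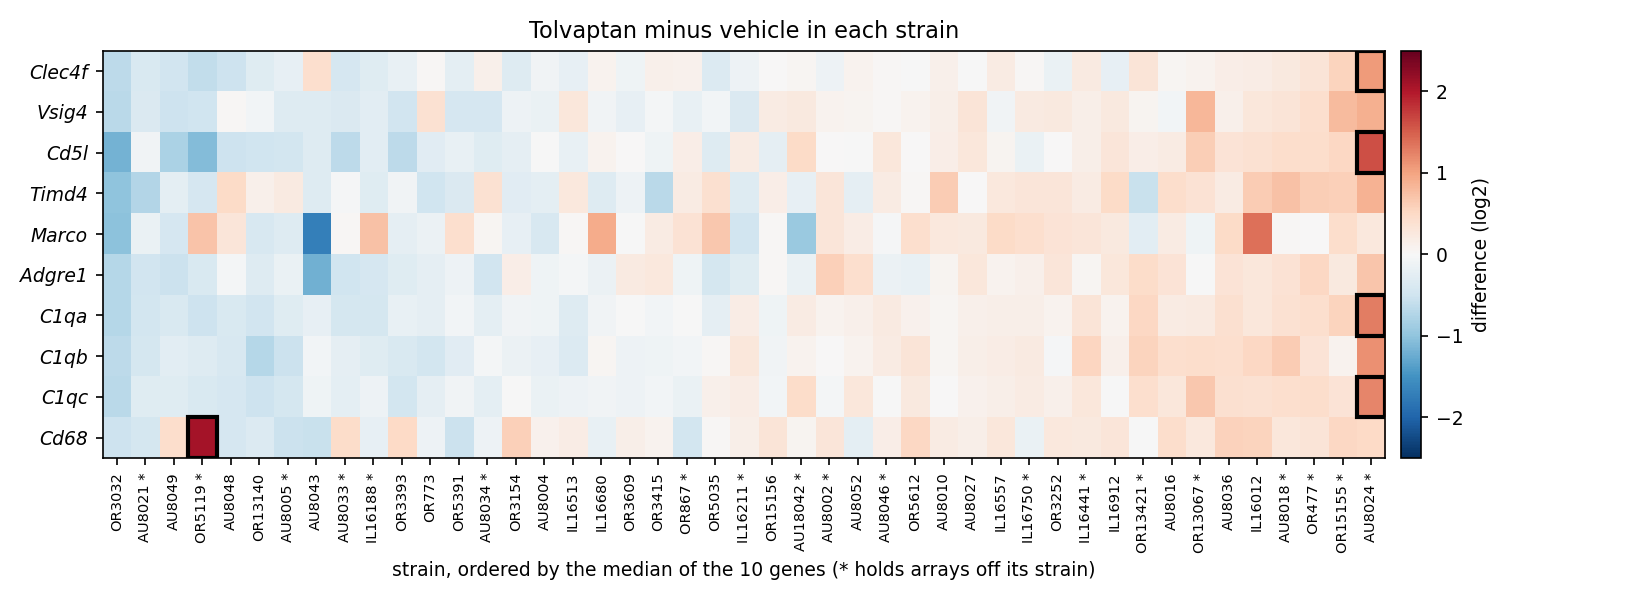
Tolvaptan minus vehicle (log2, colour) for 10 genes and 45 strains, ordered by the median of the 10 genes; framed cells were called in that strain and * marks strains holding arrays off their strain. Many columns keep 1 colour from Clec4f to C1qc, from OR3032 at the low end to AU8024 at the high end, and Cd68 in OR5119 (2.08) breaks its column.

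In AU8024 all 10 genes were higher under tolvaptan, with a median difference of 0.97. Clec4f was 7.67, 6.38, 8.31 and 6.66 in vehicle animals 61 to 64 and 7.93, 7.78, 8.75 and 8.80 in tolvaptan animals 65 to 68, a rise of 1.06 ± 0.29 (SE, adjusted p = 0.0481 by limma). Cd5l was 9.32, 7.25, 10.49 and 7.27 against 9.43, 9.82, 10.73 and 10.79, a rise of 1.61 ± 0.36 (adjusted p = 0.0157). Vehicle animal 63 reached into the tolvaptan range for both genes, and animals 62 and 64 were low. C1qa was 7.71, 5.10, 8.28 and 7.31 against 7.72, 7.89, 8.92 and 8.96, a rise of 1.27 ± 0.31 (adjusted p = 0.0295). C1qc rose by 1.22 ± 0.31 (adjusted p = 0.0306), and C1qb differed by 1.14 ± 0.33 without a call (adjusted p = 0.0626). Vsig4 (0.88), Timd4 (0.87) and Adgre1 (0.69) also had their highest difference in this strain and were not called. The groups overlapped for every gene of the set. Among all genes in this strain 0.312% were called higher.

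Vehicle animals 61 and 62 and tolvaptan animal 65 of AU8024 are off their strain. Without such arrays 9 of the 10 genes were higher, with a median of 0.71, and 0 of the 10 were called; Cd5l differed by 1.59 (adjusted p = 0.0877), Clec4f by 0.97 (0.217), C1qa by 0.80 (0.302) and C1qc by 0.89 (0.265). Single animals decided the calls as well. With all other arrays kept, Cd5l was not called without vehicle animal 62 (1.19) or 64 (1.08) or tolvaptan animal 67 (1.40) or 68 (1.48), and C1qa was not called without 62 (0.62), 67 (1.07) or 68 (1.14). Clec4f and C1qc lost their calls without any 1 of 61, 62, 64, 67 and 68, with differences of 0.78 to 1.21 and 0.76 to 1.29. Without vehicle animal 63, in turn, C1qb (1.61), Vsig4 (1.24) and Timd4 (1.19) were called too, and C1qb also without tolvaptan animal 65 (1.41) or 66 (1.26). With all arrays, 11 of the 15 further Kupffer cell genes were higher in this strain and 2 were called, with a median of 0.41. Of the 17 general myeloid genes 15 were higher and 1 was called, with a median of 0.38. Of the 10 monocyte and recruited macrophage genes 5 were higher and 0 called, with a median of -0.0014, and of 8 neutrophil genes 5 and 0, with a median of 0.012. Without the arrays off their strain the numbers higher in these lists were 10, 11, 2 and 2. Their medians were then 0.40, 0.14, -0.17 and -0.11. The called genes were these: the complement regulator Cfp rose by 1.24, the cytokine binder Il18bp by 1.17 and the signalling adaptor Tyrobp by 1.23, called with all arrays and not without those off their strain (adjusted p 0.270, 0.323 and 0.329). The mean level of the 10 sinusoidal endothelial genes was 5.97 to 6.78 in its vehicle animals and 6.42 to 6.68 under tolvaptan, with 9 of 10 higher and 0 called. Without the arrays off their strain 7 of these 10 endothelial genes were higher. The part of these cells in the result was not tested.

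OR3032 stood at the other end, with 0 of the 10 genes higher, a median difference of -0.70 and no array off its strain. Cd5l was 10.52, 10.95, 10.92 and 10.86 in vehicle animals 431 to 434 and 10.45, 10.33 and 8.06 in tolvaptan animals 436 to 438, a difference of -1.19 ± 0.39 (SE, adjusted p = 0.714 by limma). Clec4f was 8.17, 8.58, 8.36 and 8.33 against 8.14, 8.13 and 6.85, a difference of -0.65 ± 0.31 (adjusted p = 0.995). The groups did not overlap for these genes, but animals 436 and 437 lay just under the vehicle range and animal 438 far below. C1qa showed the same picture, with 8.72, 8.95, 8.84 and 8.55 against 8.44, 8.46 and 7.26 (difference -0.71 ± 0.34). Limma called 0 of the 10 genes here, with 7 at an unadjusted p under 0.05, against 4.82% of all genes in this strain. Without animal 438 the differences were -0.45 for Cd5l, -0.20 for Clec4f and -0.28 for C1qa. Timd4, close to background in many animals, also had its lowest strain difference here. It was 4.20, 3.51, 3.06 and 3.70 in vehicle animals against 2.67, 3.10 and 1.98 under tolvaptan, and these groups overlapped. Leaving out each of the 7 animals in turn gave -1.22 to -0.84 for Timd4, called in none, so this difference did not rest on animal 438 alone.

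Animal 438 was low in more than macrophage genes. Its Cd5l value was higher than that of 7 arrays of the 354, its Cd68 and Clec4f values than 8 each, and its Adgre1 and Timd4 values than 5 each. C1qa was higher than in 18 arrays, Vsig4 and C1qb than in 22 each and C1qc than in 58. Marco, higher than in 214 arrays, was not low. The mean of the 10 sinusoidal endothelial genes, 5.18, was the lowest of all arrays, against 6.76 and 6.88 in the other 2 tolvaptan animals of the strain, while the mean of 8 hepatocyte genes, 13.01, was exceeded in 10 arrays. Among other lists, the mean of 3 B cell genes, 2.96, was higher than in 5 arrays, and that of 3 dendritic cell genes, 3.03, than in 10. The mean of 7 stellate cell and fibroblast genes, 5.31, was higher than in 47 arrays, and that of 7 T and NK cell genes, 2.77, than in 74. The B cell, dendritic cell, and T and NK cell means lie close to the array median. Neutrophil and monocyte genes were not low in animal 438. The mean of 8 neutrophil genes, 4.20, was higher than in 342 arrays, against 3.68 and 3.75 in the other 2 animals. The mean of 10 monocyte and recruited macrophage genes, 3.39, was higher than in 227 arrays. The part of cell composition in this result was not tested.

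In OR5119 Cd68 parted from the other genes. It was 5.86, 5.26, 4.84 and 4.50 in vehicle animals 361 to 364 and 7.11, 6.59, 6.54 and 8.39 in tolvaptan animals 365 to 368. Every tolvaptan animal lay above every vehicle animal, and the rise was 2.08 ± 0.38 (SE, adjusted p = 0.000112 by limma), where 0.991% of all genes were called higher in this strain. Vehicle animal 364 is off its strain, and with all such arrays left out the rise was 1.90 (adjusted p = 0.000205 by limma; 0.957% of all genes called higher). Leaving out each animal in turn gave 1.61 to 2.29, called each time. Fitted on the arrays of this strain alone, the difference was 2.04 and was not called (adjusted p = 0.724).

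The Kupffer cell genes of OR5119 did not follow Cd68, and 8 of the 10 genes were lower under tolvaptan. Cd5l was 10.59, 10.66, 9.80 and 9.77 against 10.01, 10.18, 8.73 and 7.69, a difference of -1.09 ± 0.37 (adjusted p = 0.105). Clec4f was 8.29, 8.21, 7.59 and 8.41 against 8.41, 7.91, 6.97 and 6.69, a difference of -0.62 ± 0.29 (adjusted p = 0.347). Tolvaptan animals 367 and 368 had the lowest values of both genes, while 368 had the highest Cd68 of all arrays. Of the 10 monocyte and recruited macrophage genes 5 were higher and 2 were called, with a median of 0.0086. One of the called genes, Gpnmb, a glycoprotein of lipid-laden and recruited macrophages, rose by 1.15 (adjusted p = 7.27e-07 by limma), also without the arrays off their strain (1.10). The other, the tetraspanin Cd9, rose by 1.32 (adjusted p = 0.0274), and was not called without those arrays (0.87, adjusted p = 0.240). In other lists Stab2 fell by 1.23 (adjusted p = 0.000443) and the hepatocyte enzyme Cyp2e1 by 0.19 (adjusted p = 0.0306). Without the arrays off their strain Stab2 stayed called (-1.25, adjusted p = 0.000274 by limma) and Cyp2e1 did not (-0.16, adjusted p = 0.164). Of 10 lysosomal genes 8 were higher and 0 called, with a median of 0.19.

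In AU8043 the differences of Marco, Adgre1 and Cd68 were lowest, and vehicle animal 393 stood apart for Marco and Adgre1. Cd68 differed by -0.56 (adjusted p = 0.996 by limma), and by -0.28 without animal 393. Marco was 4.36, 4.80, 10.12 and 4.46 in vehicle animals 391 to 394 and 4.20, 3.47, 4.60 and 4.67 in tolvaptan animals 395 to 398, a difference of -1.70 ± 0.58 (SE, adjusted p = 0.485 by limma), and -0.28 without animal 393. Adgre1 was 5.51, 5.67, 8.28 and 5.90 against 5.04, 5.16, 5.11 and 5.24. Its groups did not overlap, and the difference of -1.20 ± 0.30 (adjusted p = 0.0933) was -0.56 without animal 393. It was called without animal 391 (-1.49, adjusted p = 0.00576 by limma) or 392 (-1.44, adjusted p = 0.0192), and without the arrays off their strain, of which this strain has none (adjusted p = 0.0452), where 0.0928% of all genes were called lower.

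Animal 393 had an unusual mix of macrophage genes, picked out after its values were seen. Its Marco and Adgre1 values were the highest of all 354 arrays, where the next highest were 8.38 and 7.07. Its Clec4f value, 5.74, was the lowest of all, against 8.24, 8.51 and 8.66 in the other vehicle animals of the strain. The other members were not low, with Vsig4 at 7.50, Cd5l at 10.65 and C1qa at 8.77. The mean of the 17 general myeloid genes was 6.69 against 5.30 to 5.61 in the other 3 animals. Among its high genes were the NADPH oxidase subunit Cybb (6.36 against 2.49 to 3.83), the integrin Itgam (4.87 against 1.98 to 2.59) and the endotoxin receptor Cd14 (9.51 against 5.23 to 5.78). The mean of the 15 further Kupffer cell genes was 7.08 against 6.77 to 6.97. Of these, Spic was high (5.57 against 3.03 to 3.78), while C6 (9.27 against 9.33 to 9.92) and Fcna (9.04 against 9.52 to 9.79) were low. The mean of the 10 monocyte and recruited macrophage genes was 3.94 against 3.29 to 3.54, with Ccr2 low (2.03 against 2.22 to 3.04). The neutrophil genes S100a8 and S100a9 were 8.38 and 8.47 against at most 4.01 and 4.60, and the mean of 8 neutrophil genes was 5.50 against 3.23 to 3.61. The part of these cells in the Marco and Adgre1 values was not tested.

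Marco had its highest strain difference in IL16012, where vehicle animals had 2.22, 2.75, 2.82 and 3.42 and tolvaptan animals 4.84, 3.02, 4.70 and 4.13, a difference of 1.37 ± 0.58 (SE) with an adjusted p of 0.812 by limma. The groups overlapped in 1 tolvaptan animal, and the vehicle values lie around the array median. All 10 genes were higher in this strain, with a median of 0.38 and 0 called. C1qb was lowest in OR13140, with 8.44, 8.46, 7.86 and 8.85 against 7.80, 7.81, 7.86 and 7.27, a difference of -0.72 that was not called. AU8033 holds 3 arrays off its strain. With all arrays its median was -0.30 and 0 of the 10 genes were called, and without them, on 2 vehicle and 3 tolvaptan animals, all 10 were lower, with a median of -1.01 and calls for Cd5l (-1.40, adjusted p = 0.0488 by limma), C1qa (-1.20, adjusted p = 0.0281) and C1qc (-1.11, adjusted p = 0.0473). In that setting 1.39% of all genes were called lower in AU8033.

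**Figure D4:**
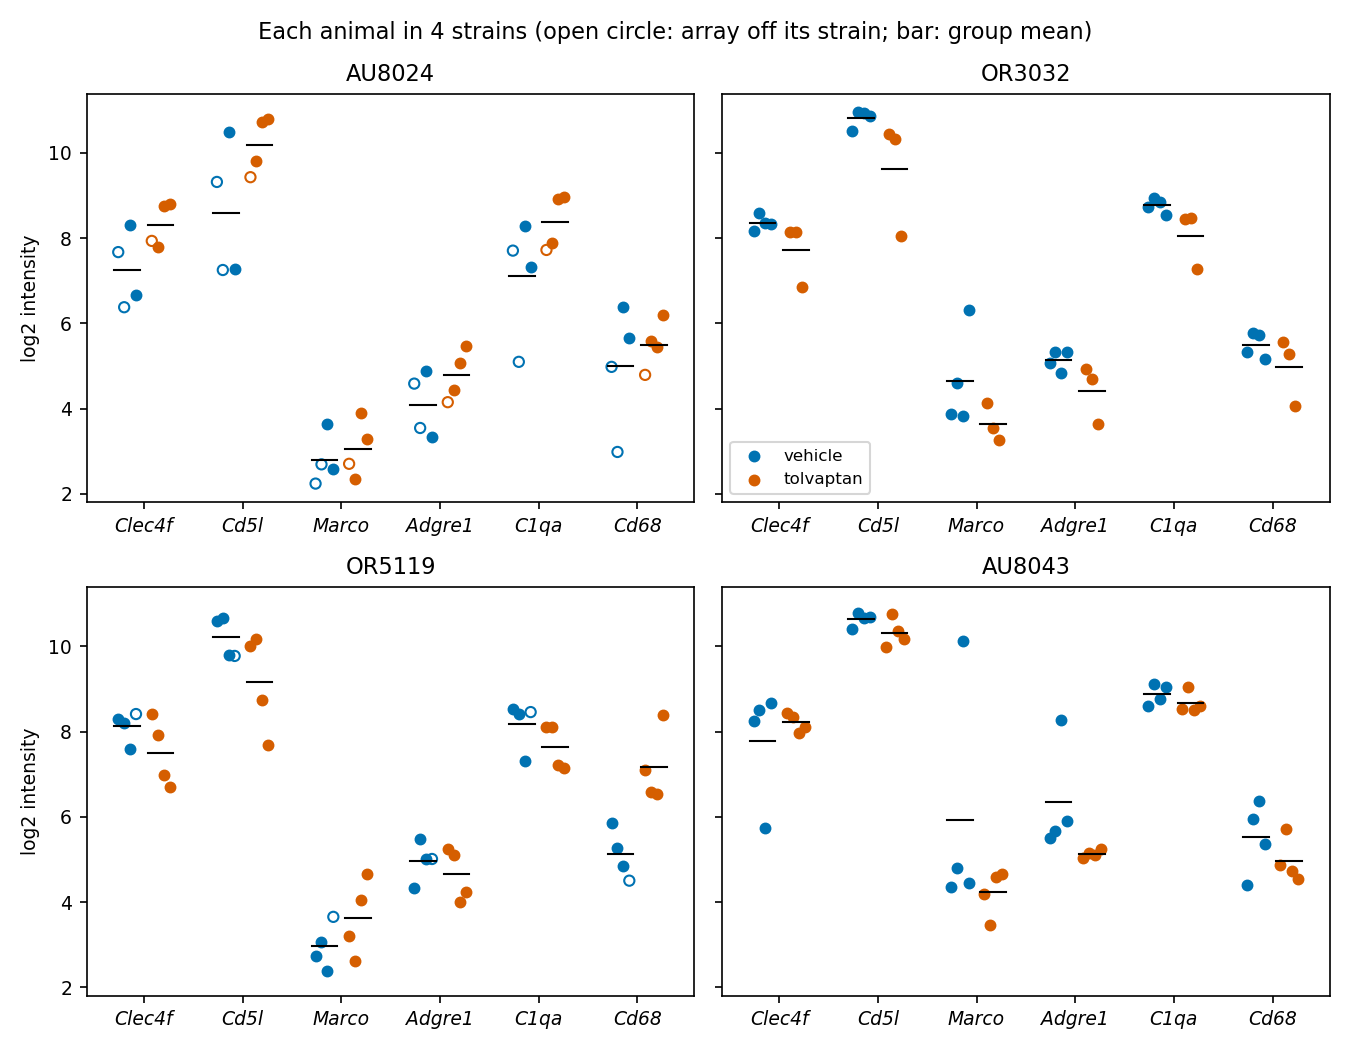
Log2 intensity of 6 genes in each vehicle (blue) and tolvaptan (orange) animal of AU8024, OR3032, OR5119 and AU8043; open circles are arrays off their strain and bars group means. Cd68 separates the treatments in OR5119, 1 tolvaptan animal is low across genes in OR3032, and vehicle animal 393 of AU8043 is high for Marco and Adgre1 and low for Clec4f.

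With all arrays, all pairs of the 10 genes had an r above 0 for vehicle means, for drug differences and between animals. Over the 45 pairs of genes, the median Pearson's r was 0.60 between vehicle strain means, 0.53 between strain differences and 0.53 between animals within a strain and treatment. The C1q chains had r of 0.83 to 0.85 for vehicle means, 0.90 to 0.92 for differences and 0.86 to 0.89 between animals. Cd5l followed C1qa closely, at 0.87, 0.90 and 0.82. The median r of pairs with Marco was 0.35 for vehicle means, 0.26 for differences and 0.39 between animals. For vehicle means the r of Marco with Clec4f was 0.071, and -0.20 over the 26 strains that hold no array off its strain. Points of a pair come from the same arrays, so shared RNA and normalization enter each r, and strain differences are partly set by the same vehicle animals.

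Cd68 correlated with the other genes in vehicle livers and between animals, and its correlations over the drug differences were lower. Its median r with the other 9 genes was 0.67 for vehicle means and 0.51 between animals, and 0.24 for strain differences, against 0.62 for pairs without it. The lowest r for differences was 0.022, between Clec4f and Cd68. Leaving out OR5119 raised that 0.24 to 0.44.

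**Figure D5:**
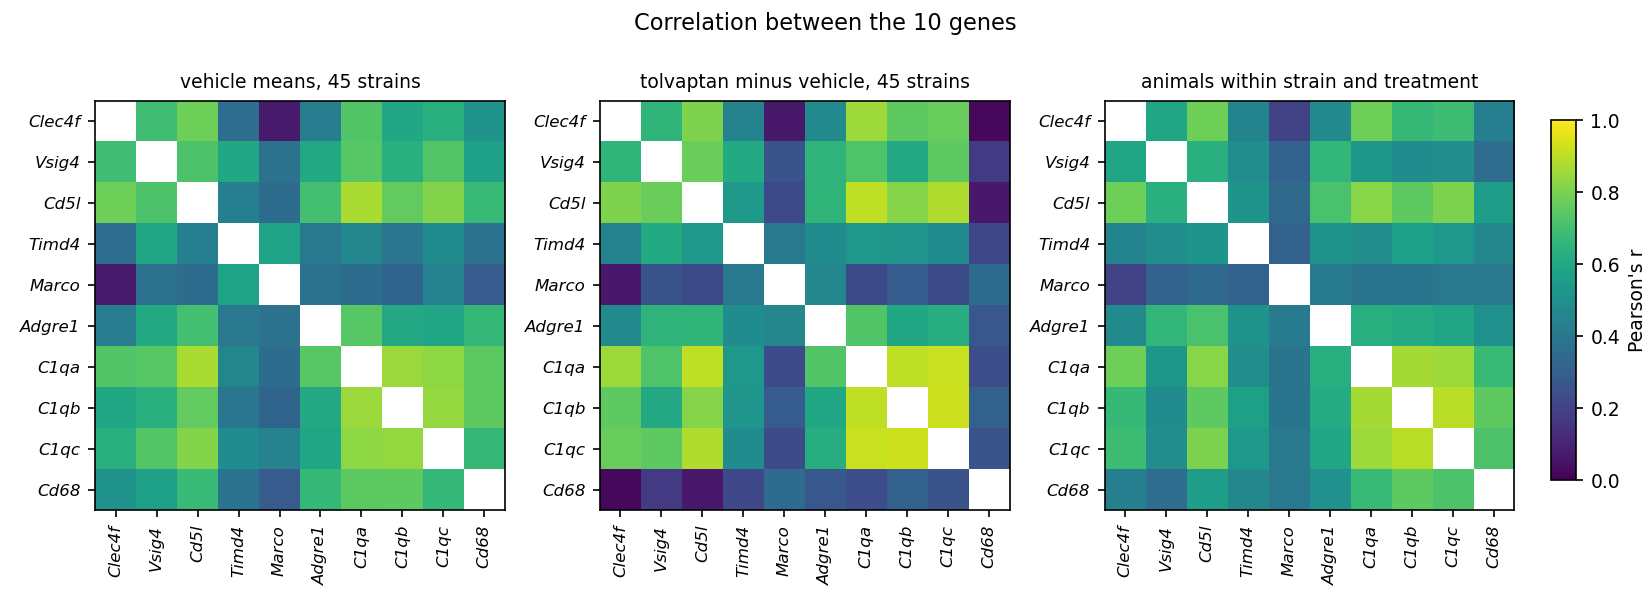
Pearson's r (colour, 0 to 1) between the 10 genes for vehicle means of 45 strains, for tolvaptan minus vehicle in 45 strains, and between animals within strain and treatment over 354 arrays. C1qa, C1qb and C1qc form a bright block in all 3 panels, most pairs with Marco are dimmer than those, and pairs with Cd68 are dim in the middle panel.

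For each gene of the set, the other genes were ranked by the correlation of their vehicle strain means with its own. Over 45 strains the nearest gene outside the set was Tyrobp, the adaptor of myeloid receptors, for C1qa (r = 0.90), Cd5l (0.90), C1qc (0.87), C1qb (0.84) and Clec4f (0.67). The protease gene Ctss and the tetraspanin Cd53 came first for Vsig4 (0.89 and 0.81), the integrin Itgal and the GTPase Rac2 for Adgre1 (0.81 and 0.79), and the Fc receptor chain Fcer1g for Cd68 (0.77). Cfp was next after Tyrobp for C1qa and C1qb (0.86 and 0.82), and the metal transporter Slc11a1 for Cd5l and C1qc (0.85 and 0.79). Likeness was weaker for Timd4, led by Lcp2 at 0.62, and for Marco, led by the transporter Abcc1 at 0.59. Ctla2b was next after Abcc1 for Marco, also at 0.59. Between animals of a strain and treatment Marco correlated at 0.21 with Abcc1 and at 0.43 with Ctla2b, and C1qa at 0.84 with Tyrobp.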

How the data were processed

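Liver RNA of 354 mice was hybridised to Affymetrix HT MG-430 PM arrays, 1 per animal. The deposited values are log2 intensities per probe set, made by the authors with RMA in Affymetrix Expression Console per the submitters' processing notes; their settings are not given in the sources used here. Depth does not apply to arrays, whose number limits the precision. Of 42597 probe sets, 27691 name 1 gene symbol, 493 several, 14376 none and 37 are controls; 27494 matched RefSeq. Of several single-symbol probe sets of a gene the one with the highest mean was used; genes exceeding the median of the array in fewer than 4 arrays were dropped.

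Limma 3.58.1 in R 4.3.3 fitted a mean per combination of strain and treatment, with scan date (6 dates, numbered from the earliest) as a covariate, over all arrays, with Benjamini-Hochberg adjustment at 0.05 over 14125 genes (within each strain for single strains). All tests were two-sided. The fit was tested on simulated data. The labels number animals without pairing them across treatments. P-values measure the spread between animals. No 2 arrays held identical values.

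The members and lists were chosen with earlier results of these data known. The text names all 10 members, the strains with their highest and lowest vehicle means and differences, called strains, the 3 genes most alike in vehicle means (the first 1 or 2 printed), and of each list its called genes or the 2 with the lowest adjusted p. Genes of 1 animal, and AU8033, were singled out after their values were seen. Alternatives covered the scan term, arrays, scaling, probe sets, filters, the unit of analysis, scans, strains and animals left out.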

Additional observations from a re-analysis of the deposited data

Results flagged for a closer look

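In 71 groups of 4 animals, each of 1 gene, strain and treatment described above, 6 had 1 animal standing apart from the other 3. Chance does so in about 1 in 20 groups taken without regard to their values. Many of these groups were named for extreme values, so 6 of 71 cannot be read against that rate. Marco in vehicle animal 393 of AU8043 was 10.12, where the others had 4.36 to 4.80. Adgre1 in the same animal was 8.28, where the others had 5.51 to 5.90. C1qb in tolvaptan animal 158 of OR13140 was 7.28, below 7.80 to 7.86 in the others. Timd4 in vehicle animal 63 of AU8024 was 3.86, above 2.36 to 2.54 in the others. Clec4f in vehicle animal 393 of AU8043 was 5.74, below 8.24 to 8.66 in the others. C1qa in tolvaptan animal 396 of AU8043 was 9.06, above 8.51 to 8.60 in the others.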

How the results depend on the processing

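The 4 counts of members called were 0 (averaged difference) under 19 alternatives and 45 strains left out in turn, 0 (unequal differences) under 15 and the same 45, 10 (unequal vehicle means) under 11, and 5 (single strains) under 12 alternatives within 1.5 times in 9 of them. Without the arrays off their strain it was 5 again, 3 in AU8033, 1 in AU8043 and 1 in OR5119, of which Cd68 in OR5119 was the 1 call shared with all arrays. It was 0 in the 26 strains without an array off its strain, but these leave out AU8024 and OR5119, so none of the 5 calls could recur there. It was 0 when each strain was fitted alone (scan 1 against later scans as a term) and 2 with p adjusted over all genes and strains. It ranged from 1 to 8 with single animals left out, being 3, 1, 8 and 2 without vehicle animals 61, 62, 63 and 64 of AU8024 and 1 without tolvaptan animal 67 or 68.

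Signs of averaged differences, none of them called, turned in several settings. Without the arrays off their strain C1qa was -0.025, C1qb -0.029 and C1qc -0.019, and in the 26 strains without them Vsig4 was -0.037, C1qa -0.079, C1qb -0.073 and C1qc -0.049. C1qa was -0.0070 after quantile normalization, -0.00098 with strain and scan as blocks and -0.010 in the later scans. In scan 1 alone Vsig4 was -0.025, Cd5l 0.013, Timd4 -0.026, Marco -0.098 and Adgre1 0.061. Without scan 2 Clec4f was 0.020, Cd5l 0.030 and Adgre1 0.047. Without scan 3 Vsig4 was -0.0075, Timd4 -0.0069, Marco -0.047 and C1qb -0.0011. Without scan 4 Vsig4 was -0.058, C1qa -0.029 and C1qb -0.0054, and without scan 6 Vsig4 was -0.0042. With strains left out in turn, Vsig4 ran from -0.013 to 0.022, C1qa from -0.028 to 0.018 and C1qb from -0.0098 to 0.032. Cd68 kept its sign in 19 of 19 alternatives (0.074 to 0.24), with a lowest adjusted p of 0.244. The cause of these turns was not tested. The setting without animal 393 of AU8043 was added after seeing the data. Animals carry numbers of their own that pair none across treatments, so no replicate block was fitted. Treatments were compared within strain and then averaged. Signal over background limits Timd4 and Marco.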
